A study of Homo sapiens with 21 samples.

Results

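Cells exposed for 24 h to 0.1 µM coumarin were compared with cells that received none, 3 libraries against 3, out of 21 libraries in which messenger RNA was sequenced. Coumarin is a plant benzopyrone, and the cells carry the label HepG2, an established line that came from a liver cancer. The libraries were chosen by the dose in their labels. The control (0 µM) and the treated cells shared serum-free DMEM medium and a wash with PBS before exposure. The other groups of the series, with 3 libraries each, received 0.001, 0.01, 1, 10 or 100 µM, and those at 0.001, 0.01 and 1 µM are used here as a reference that holds no control library. The labels call the replicates biological without saying how the cultures were separated, so p-values measure the spread between these libraries.

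In liver, coumarin is hydroxylated by the cytochrome P450 enzyme CYP2A6 or oxidised to an epoxide, and conjugating enzymes clear the products. Some derivatives of coumarin that carry a hydroxyl group block VKORC1, the enzyme that recycles vitamin K for the carboxylation of clotting factors, and coumarin itself lacks that group. Cells adapt to foreign compounds through receptors such as AHR and stress regulators such as NRF2, and they set the supply of cholesterol and fatty acids through the SREBP transcription factors.

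The libraries held 27295690 to 30615680 gene counts, and 16699 of 58735 genes had enough counts to be tested, 12613 of them protein-coding. Replicate libraries had a common coefficient of variation of 4.49% in edgeR. The labelled identity was checked against marker genes. Of 12 hepatocyte markers, 7, among them ALB, TTR and SERPINA1, had no count in these 6 libraries, and CEBPA alone reached 1 CPM (counts scaled by the TMM library size, the unit of all levels below). KRT7, KRT8, KRT18, VIM, COL1A1 and COL3A1 were abundant, while KRT19 and CDH1 stayed under 1 CPM, COL1A2 had 1 count in all 6 libraries and EPCAM had none, so the cells are called here by their label only. The library total on which the deposited FPKM rest exceeded the summed gene counts. The part of that total not in the summed counts, called here the share outside genes, was 3.91%, 8.03% and 8.17% in controls 1, 2 and 3. It was 1.97%, 3.19% and 2.37% in the 0.1 µM libraries. Control replicates 2 and 3 also had the largest TMM scaling factors of the 6 libraries (1.040 and 1.043), and control replicate 1 stood between them and the treated libraries. The part of this difference in the results below was not tested, and the main counts are therefore also given with control replicate 1 as the only control and with that share as a covariate.

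Against the controls, 838 genes rose and 239 fell at 0.1 µM (edgeR quasi-likelihood test, adjusted p under 0.05), which is 5.02% and 1.43% of the genes tested. The changes were small: the median size among the called genes was 0.22 on the log2 scale, and 24 genes reached a 2-fold difference. Protein-coding genes made up 806 of the rises and 167 of the falls. With upper-quartile scaling in place of TMM, which moved the median of all genes to -0.04, 489 genes rose and 395 fell, so that rises made up 55.3% of the calls and not 77.8%. Against control replicate 1 alone, 195 genes rose (1.11%) and 38 fell (0.216%), and 185 of the 1077 genes were called there. All 1077 kept their sign, with a median size of 0.20, but control replicate 1 and the treated libraries are in both comparisons. In 1032 of the 1077 the treated and control groups did not overlap, which largely fixed the sign in advance. With the share outside genes as a covariate, 11 genes were called (0.0659%), and 1067 of the 1077 kept their sign.

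None of the 1077 genes was called when 0.1 µM was compared with the mean of 0.001, 0.01 and 1 µM, by edgeR or by DESeq2. At an unadjusted p under 0.05 there were 302 of the 1077, against 1179 of all 16699 genes, in a comparison that has the treated libraries in common with the first. Their median size in that comparison was 0.069, against 0.22 from the controls. The doses have the same control libraries, so their counts are not independent: 256 genes were called at 0.001 µM, 978 at 0.01 µM, 335 at 1 µM, 437 at 10 µM and 4558 at 100 µM.

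The 12 largest rises among protein-coding genes that met the naming rule included parts of the energy and protein making machinery. ATP5ME, a membrane subunit of ATP synthase, had 22.8, 20.4 and 19.8 CPM in control and 40.6, 37.9 and 33.7 CPM at 0.1 µM. Its rise was 1.78-fold (log2 change 0.83, SE 0.18, edgeR adjusted p = 0.013). MT-ATP8, a mitochondrially encoded subunit of the same enzyme, went from 31.5 ± 2.43 to 55.9 ± 6.01 CPM (SD, n = 3), and its gene overlaps MT-ATP6, so reads of the 2 genes may be split uncertainly. RPS29, a protein of the small ribosomal subunit, went from 299 ± 17.0 to 516 ± 35.2 CPM, and RPL38, of the large subunit, from 364 ± 18.5 to 512 ± 24.7 CPM. NDUFA3, a subunit of respiratory complex I, rose 1.39-fold. In each of these 5 genes the lowest treated library stood above the highest control, as the naming rule requires.

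The other 7 rises were spread over several roles. CPLX1, a complexin that acts on vesicle fusion, rose 1.77-fold from a low level of 1.10 CPM. MYRF, a membrane-bound transcription factor known from myelin, rose 1.52-fold from 2.02 CPM. HSPG2, which encodes the basement membrane proteoglycan perlecan, had 307, 373 and 303 CPM in control and 491, 486 and 396 CPM at 0.1 µM. FOXP4, a forkhead transcription factor, went from 44.3 ± 1.82 to 61.6 ± 7.77 CPM, and AGER, the receptor for advanced glycation end products, from 2.85 ± 0.04 to 3.96 ± 0.68 CPM. CCNK, the cyclin partner of CDK12, rose 1.38-fold (log2 change 0.47, SE 0.094, edgeR adjusted p = 0.00163). PTPN23, a phosphatase-like protein of endosomal sorting, had 52.6, 54.3 and 52.3 CPM in control and 77.5, 76.1 and 65.4 CPM at 0.1 µM (edgeR adjusted p = 9.24e-06). Of the 12, CCNK and PTPN23 kept their call against control replicate 1 alone, and none kept it with the covariate.

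**Figure D1:**
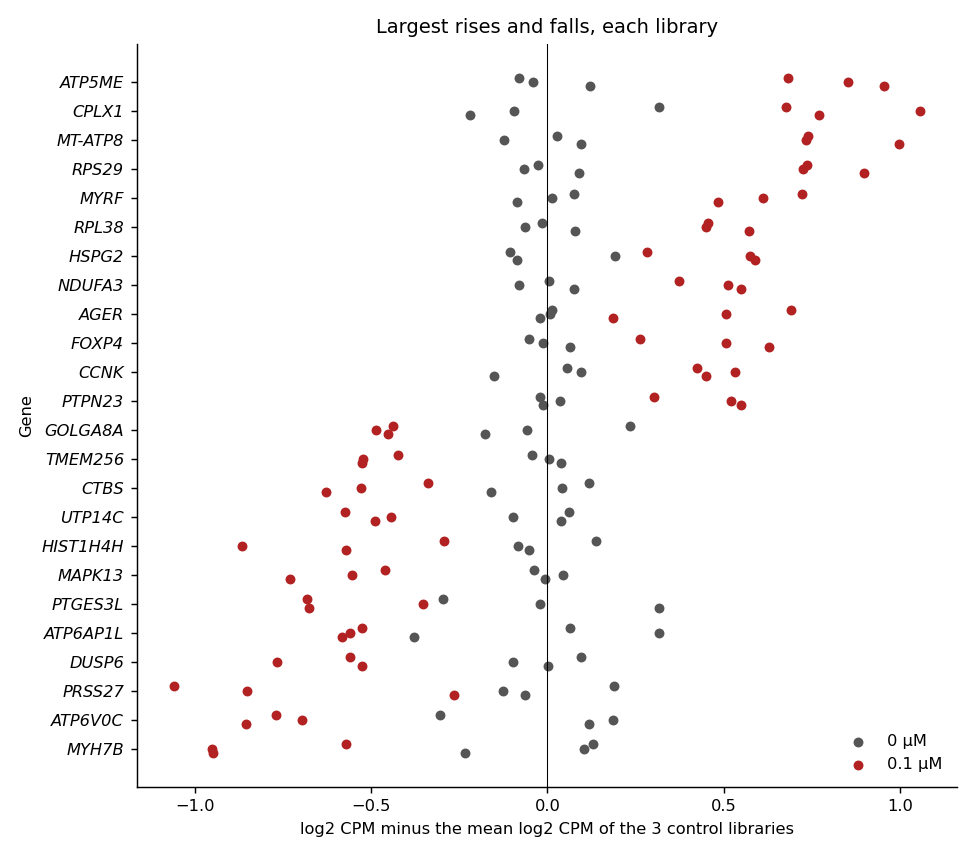
Level of the 24 named protein-coding genes in each library, as log2 CPM minus the mean log2 CPM of the 3 controls (horizontal axis), with 0 µM in grey and 0.1 µM in red. In every row the red points lie on 1 side of all 3 grey points, as the naming rule requires, and the fitted changes run from -0.82 for MYH7B to 0.83 for ATP5ME.

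The 12 largest falls were mostly of genes with few reads. MYH7B, a myosin heavy chain, fell from 1.66 ± 0.22 to 0.94 ± 0.15 CPM (SD, n = 3), and PRSS27, a serine protease, fell from 2.56 ± 0.30 to 1.59 ± 0.47 CPM. DUSP6, a phosphatase that switches off ERK, had 2.57, 2.40 and 2.74 CPM in control and 1.78, 1.51 and 1.74 CPM at 0.1 µM (edgeR adjusted p = 0.0404). MAPK13, the p38 delta kinase, fell from 2.65 ± 0.07 to 1.78 ± 0.17 CPM. ATP6V0C, the proteolipid subunit of the vacuolar proton pump, fell 1.72-fold from 8.50 CPM, and CTBS, a lysosomal enzyme of glycoprotein breakdown, fell 1.41-fold from 5.13 CPM. ATP6AP1L and PTGES3L fell by 0.58 on the log2 scale.

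Among the more abundant falls, GOLGA8A, a golgin with near-identical copies that could share its reads, had 81.8, 88.7 and 109 CPM in control and 67.6, 65.9 and 68.2 CPM at 0.1 µM. HIST1H4H, a histone H4 gene, had 28.7, 28.0 and 32.7 CPM in control and 20.01, 16.3 and 24.3 CPM at 0.1 µM. TMEM256, a small membrane protein, went from 25.8 ± 0.74 to 18.4 ± 0.75 CPM, with little spread in either group. UTP14C, a retrogene copy of a ribosome biogenesis factor whose reads may be shared with its parent, fell 1.42-fold. PTGES3L alone of these 12 kept its call against control replicate 1, and none kept it with the covariate. Leaving out 0.1 µM replicate 1 kept 1 of the 12 falls (PRSS27) and 5 of the 12 rises.

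The 11 genes called with the covariate were set apart after their values were seen, and 10 of them rose and 1 fell. NUP214, a nucleoporin, had 59.2, 64.9 and 59.4 CPM in control and 81.3, 82.0 and 79.8 CPM at 0.1 µM, a 1.32-fold rise (log2 change 0.41, SE 0.045, edgeR adjusted p = 8.26e-07). NOTCH2, a receptor of the Notch pathway, went from 127 ± 8.40 to 164 ± 2.38 CPM. DAG1, the extracellular matrix receptor dystroglycan, went from 332 ± 10.4 to 410 ± 14.8 CPM. These groups do not overlap, as is so for 1032 of the 1077 called genes.

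MKI67, the proliferation marker Ki-67, had 222, 267 and 232 CPM in control and 309, 300 and 289 CPM at 0.1 µM. PRRC2C, ANKRD17, TCF20, ZNF609 and ZNF618 rose between 1.18-fold (ANKRD17) and 1.27-fold (ZNF609 and ZNF618), and MIEN1 fell 1.20-fold. All but ZNF618 and MIEN1 kept their call in each of the 18 alternatives run, including control replicate 1 alone, and the covariate call by which they were chosen is 1 of these. The longest transcript annotated for each of the 10 risers measured between 5829 (DAG1) and 12678 bases (MKI67), that of MIEN1 1999 bases, and the median over all protein-coding genes tested was 3670 bases. NUP214 had means of 75.6, 74.3, 74.5, 70.7 and 77.1 CPM at 0.001, 0.01, 1, 10 and 100 µM, all above its control mean of 61.2 CPM. At 0.1 µM it did not pass the test against the 3 neighbouring doses (log2 difference 0.12, SE 0.036, edgeR adjusted p = 0.688).

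Genes of lipid synthesis were among those that rose. Of 26 tested genes of cholesterol synthesis and sterol response, 9 rose and none fell, with a median log2 change of 0.15 over the list. Of 18 genes of fatty acid and triglyceride synthesis, 6 rose and none fell, with a median of 0.10. Over all genes tested 5.02% rose and 1.43% fell, and the median was -0.003. Over protein-coding genes alone 6.39% rose and 1.32% fell. The lists were chosen with earlier results of these data known. DHCR7, which makes the last step of cholesterol synthesis, had 82.0, 80.1 and 75.4 CPM in control and 98.1, 104 and 100.5 CPM at 0.1 µM (log2 change 0.35, SE 0.057, edgeR adjusted p = 0.000178). The groups stood apart by more than the spread within them.

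SQLE, the squalene epoxidase, went from 46.7 ± 0.68 to 53.8 ± 1.21 CPM (SD, n = 3). INSIG1, which holds the SREBP complex in the endoplasmic reticulum, had 73.2, 73.7 and 71.9 CPM in control and 82.9, 84.4 and 84.7 CPM at 0.1 µM. SREBF2, the gene of the regulator SREBP-2, went from 251 ± 3.07 to 278 ± 5.72 CPM. LSS, the lanosterol synthase, and FDPS, which makes farnesyl diphosphate, rose by 0.15 and 0.13 on the log2 scale. HMGCS1, the HMG-CoA synthase, had 37.5 ± 1.92 CPM in control and 35.6 ± 2.17 CPM at 0.1 µM and did not pass the test (edgeR adjusted p = 0.516).

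Among the fatty acid genes, ACACA, the acetyl-CoA carboxylase, had 170, 177 and 169 CPM in control and 212, 205 and 212 CPM at 0.1 µM (log2 change 0.29, SE 0.040, edgeR adjusted p = 1.6e-05). SCD, which puts a double bond into fatty acids, had 811, 822 and 796 CPM in control and 959, 932 and 963 CPM at 0.1 µM. FASN, the fatty acid synthase, went from 433 ± 18.2 to 567 ± 51.7 CPM, and ACLY, which supplies acetyl-CoA, from 452 ± 14.2 to 536 ± 7.94 CPM. FADS2, a desaturase, and SREBF1, the gene of SREBP-1, rose by 0.19 and 0.24. The treated libraries of all 15 called genes lay above all 3 controls, which holds for 14% of all genes tested, and 1032 of the 1077 called genes had groups that did not overlap.

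Against control replicate 1 alone 1 of the 26 cholesterol genes and 2 of the 18 fatty acid genes (ACACA and SCD) were called, and with the covariate none was. The list medians were 0.13 and 0.07 in the first case and 0.07 for both in the second. None of these genes was called against the 3 neighbouring doses. SCD, for instance, had means of 951, 939, 951, 945 and 946 CPM at 0.001, 0.01, 0.1, 1 and 10 µM. Its mean was 775 CPM at 100 µM, below the control mean of 809 CPM. Other genes were less even across the doses. SREBF1 had means of 250 and 244 CPM at 1 and 10 µM, against 240 CPM in control and 283 CPM at 0.1 µM. FDPS had means of 146 and 143 CPM at 0.001 and 0.01 µM, against 143 CPM in control and 157 CPM at 0.1 µM.

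**Figure D2:**
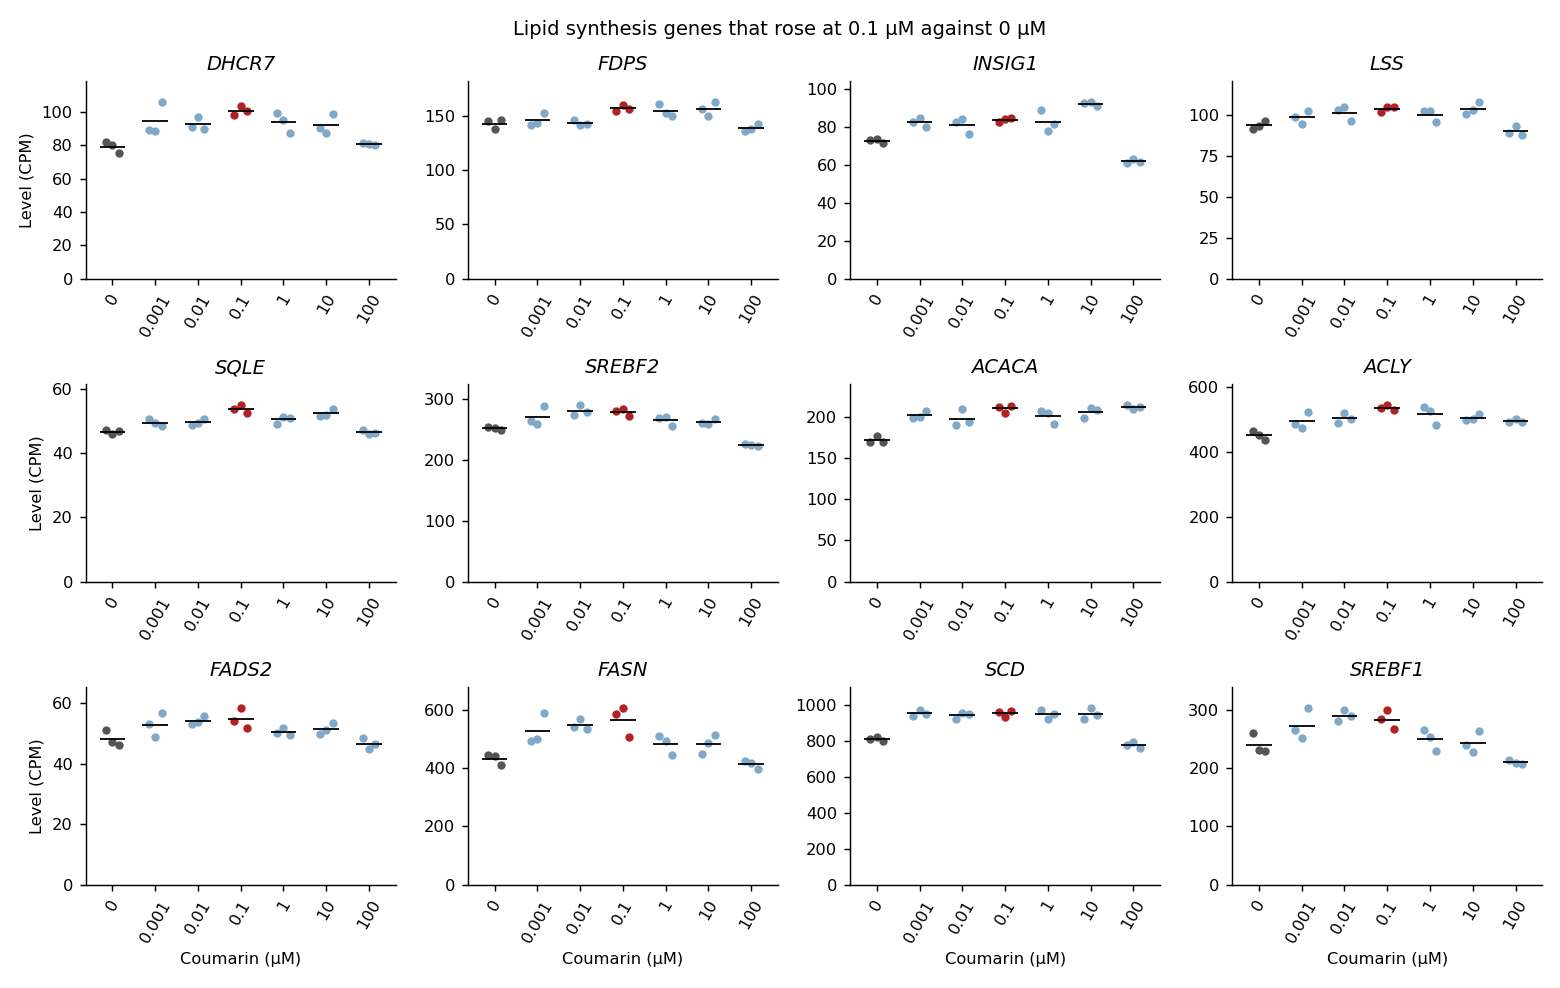
Level (CPM, vertical axis from 0) of 6 cholesterol and 6 fatty acid genes that rose at 0.1 µM, in each library against dose (µM), with control in grey, 0.1 µM in red, other doses in blue and black lines for the group means. The red points lie above the grey ones in all 12 panels. The blue points at 0.001 to 10 µM lie near the red ones in some panels, and at some doses nearer the grey ones in others, such as FDPS and SREBF1.

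The 250 bases before the start sites of these genes were searched on both strands for 4 motifs, in RefSeq promoters of GRCh38.p14. They are shown because SREBP factors are known to act together with the CCAAT-binding factor NF-Y at sterol genes. Of the 26 cholesterol genes 19 were matched, and 5 of them were among the 9 that rose. The letters CCAAT stood in 15 of 19 (78.9%), against 34.8% of the promoters of 10595 genes tested, and CCAAT was singled out after this count was seen. The sterol response core TCACNCCAC stood in 1 of 19 (SREBF2), against 0.849%. The hypoxia core ACGTG stood in 3 of 19 against 23.6%, and the E-box CACGTG, which contains ACGTG, in 2 of 19 against 9.01%. In the fatty acid list CCAAT stood in 6 of 15. A match is a description of letters in this window and not a bound site. All 5 matched risers, DHCR7, FDPS, INSIG1, LSS and SREBF2, held CCAAT. So did members that were not called, HMGCS1, EBP, SC5D and STARD4 among them, so CCAAT was not particular to the risers. Printed below, 5′ to 3′ with CCAAT, its reverse complement and the sterol core in capitals, are DHCR7 at chr11:71448394-71448643 (minus strand), INSIG1 at chr7:155297628-155297877 (plus strand) and SREBF2 at chr22:41832855-41833104 (plus strand).
DHCR7: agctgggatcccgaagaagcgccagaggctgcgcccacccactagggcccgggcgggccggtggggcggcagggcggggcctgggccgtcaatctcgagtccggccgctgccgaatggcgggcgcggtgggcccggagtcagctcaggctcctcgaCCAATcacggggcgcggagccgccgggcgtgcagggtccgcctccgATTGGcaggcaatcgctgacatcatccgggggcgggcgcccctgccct
INSIG1: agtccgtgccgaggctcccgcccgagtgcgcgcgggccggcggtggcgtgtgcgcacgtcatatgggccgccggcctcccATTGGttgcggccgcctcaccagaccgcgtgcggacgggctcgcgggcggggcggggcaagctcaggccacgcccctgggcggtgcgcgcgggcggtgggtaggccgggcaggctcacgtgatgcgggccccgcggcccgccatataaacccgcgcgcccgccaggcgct
SREBF2: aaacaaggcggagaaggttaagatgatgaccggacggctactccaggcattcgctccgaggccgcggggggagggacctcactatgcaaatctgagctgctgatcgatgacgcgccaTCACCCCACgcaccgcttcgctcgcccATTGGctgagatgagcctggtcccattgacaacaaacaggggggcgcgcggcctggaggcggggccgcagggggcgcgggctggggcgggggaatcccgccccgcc
DHCR7 holds 2 such CCAAT matches, and in SREBF2 the sterol core starts 133 bases and the CCAAT match 106 bases before the start site.

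The genes of mitochondria and ribosomes included rises and falls, beside 5.02% and 1.43% over all genes tested. In the nuclear-encoded respiratory chain 12 of 75 genes rose and 3 fell (COX6A1, NDUFB8 and NDUFA9), with a median log2 change of 0.07, which was 0.00 against control replicate 1 alone, where 1 fall was called, and -0.02 with the covariate, where nothing was. The rises included SDHA, the catalytic subunit of complex II, with 548, 505 and 508 CPM in control and 598, 601 and 586 CPM at 0.1 µM, and UQCRB, a subunit of complex III, from 182 ± 16.4 to 217 ± 18.04 CPM (SD, n = 3). Of 15 mitochondrially encoded genes 4 rose (MT-ATP8, MT-ND4L, MT-ND1 and MT-CO1), with a median of 0.16. Their median was 0.08 with control replicate 1 as the only control and -0.02 once the covariate was fitted, with no call in either. Of 78 cytosolic ribosomal protein genes 8 rose and 2 fell, with a median of 0.01. That median was -0.02 with upper-quartile scaling, -0.06 with control replicate 1 as the only control and -0.11 once the covariate was fitted. RPL17 had 40.9, 40.4 and 40.2 CPM in control and 29.6, 31.1 and 32.9 CPM at 0.1 µM (edgeR adjusted p = 0.000724), against the direction of RPS29 and RPL38. RPS2 also fell, by 0.15 on the log2 scale. Among mitochondrial ribosomal proteins 3 of 76 rose and 1 fell, shares close to those of all genes.

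Protein quality control genes that were called all rose. Of 23 genes of ER chaperones and the unfolded protein response 5 rose, of 18 heat shock genes 3 and of 32 proteasome genes 5. These shares of 21.7%, 16.7% and 15.6% stand beside 5.02% over all genes tested. HYOU1, an ER chaperone, went from 174 ± 7.23 to 208 ± 3.47 CPM (SD, n = 3), and HSP90AB1, a cytosolic chaperone, from 2722 ± 223 to 3223 ± 88.7 CPM. PSMD3, of the proteasome lid, went from 207 ± 11.0 to 258 ± 5.92 CPM. In control replicate 1 HSP90AB1 had 2980.2 CPM, against 2589 and 2598 CPM in the other 2 controls. The medians of these 3 lists, 0.08, 0.07 and 0.07, were 0.002, -0.006 and 0.009 against control replicate 1 alone, where no member was called. With the covariate they were -0.02, 0.01 and -0.02, also without a call.

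Of 35 genes of the ATF4 and amino acid response 6 rose (17.1%) and 1 fell (2.86%), against 5.02% and 1.43% of all genes tested. AARS, the alanyl-tRNA synthetase, had 449, 420 and 415 CPM in control and 524, 527 and 530 CPM at 0.1 µM (log2 change 0.30, SE 0.045, edgeR adjusted p = 3.72e-05). SLC1A5, a glutamine transporter, rose by 0.23, and WARS and MARS, both tRNA synthetases, by 0.16 and 0.19. DDIT3, the stress transcription factor CHOP, fell by 0.32 (adjusted p = 0.0186). ASNS, the asparagine synthetase and a known ATF4 target, had a log2 change of 0.14 that did not pass the test (adjusted p = 0.741). AARS was the only call of the list against control replicate 1 alone (adjusted p = 0.0499), and the covariate left none.

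RNA binding proteins were called in both directions, 12.1% as rises and 18.2% as falls, against 5.02% and 1.43% of all genes tested. Of 33 spliceosome genes 4 rose, all of them HNRNP genes (HNRNPK, HNRNPA2B1, HNRNPM and HNRNPD), and 6 fell: SRSF1, SRSF2, SRSF3, SRSF11, PNISR and LUC7L3, splicing factors with serine and arginine rich domains. SRSF2 had 188, 175 and 179 CPM in control and 151, 159 and 160 CPM at 0.1 µM, and PNISR had 232, 237 and 246 CPM in control and 203, 202 and 206 CPM at 0.1 µM. HNRNPD had 309, 268 and 276 CPM in control and 343, 339 and 331 CPM at 0.1 µM. In these 3 genes no treated library reached into the range of the controls, as in 1032 of the 1077 called genes. Over all genes tested, the treated libraries lay above all controls in 14% and below them in 10.7%. Of 9 tested HNRNP genes 5 were not called, nor were 5 of 9 SRSF genes, and these families were set apart after the calls were seen. With upper-quartile scaling 2 genes of the list rose and 8 fell. Against control replicate 1 alone SRSF2 was the only call, and with the covariate there was none.

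Genes of growth and cell structure were called mostly as rises, where 5.02% of all genes tested rose and 1.43% fell. Of 36 mitosis genes 4 rose (MKI67, PLK1, TPX2 and AURKB), of 38 DNA replication genes 4 rose (UHRF1, MCM5, MCM2 and POLE), and of 28 ribosome biogenesis genes 6 rose and 1, NOP16, fell. UHRF1, which carries DNA methylation through replication, went from 165 ± 3.00 to 194 ± 4.31 CPM (SD, n = 3). KRT8, KRT17 and SFN rose among 8 epithelial genes (37.5%), and COL1A1, COL3A1 and FN1 among 12 mesenchymal genes (25%). LAMP1, a lysosomal membrane protein, had 348, 326 and 325 CPM in control and 412, 422 and 398 CPM at 0.1 µM, and kept its call against control replicate 1 alone (edgeR adjusted p = 0.0236) but not with the covariate (adjusted p = 0.0729). DUSP1, a MAP kinase phosphatase, fell with DUSP6, from 159 ± 4.82 to 136 ± 3.15 CPM, while EPHA2 rose, among 14 genes of ERK feedback. Of the genes named in this group, MKI67, UHRF1, POLE and LAMP1 kept their call against control replicate 1 alone, and MKI67 alone with the covariate.

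**Figure D3:**
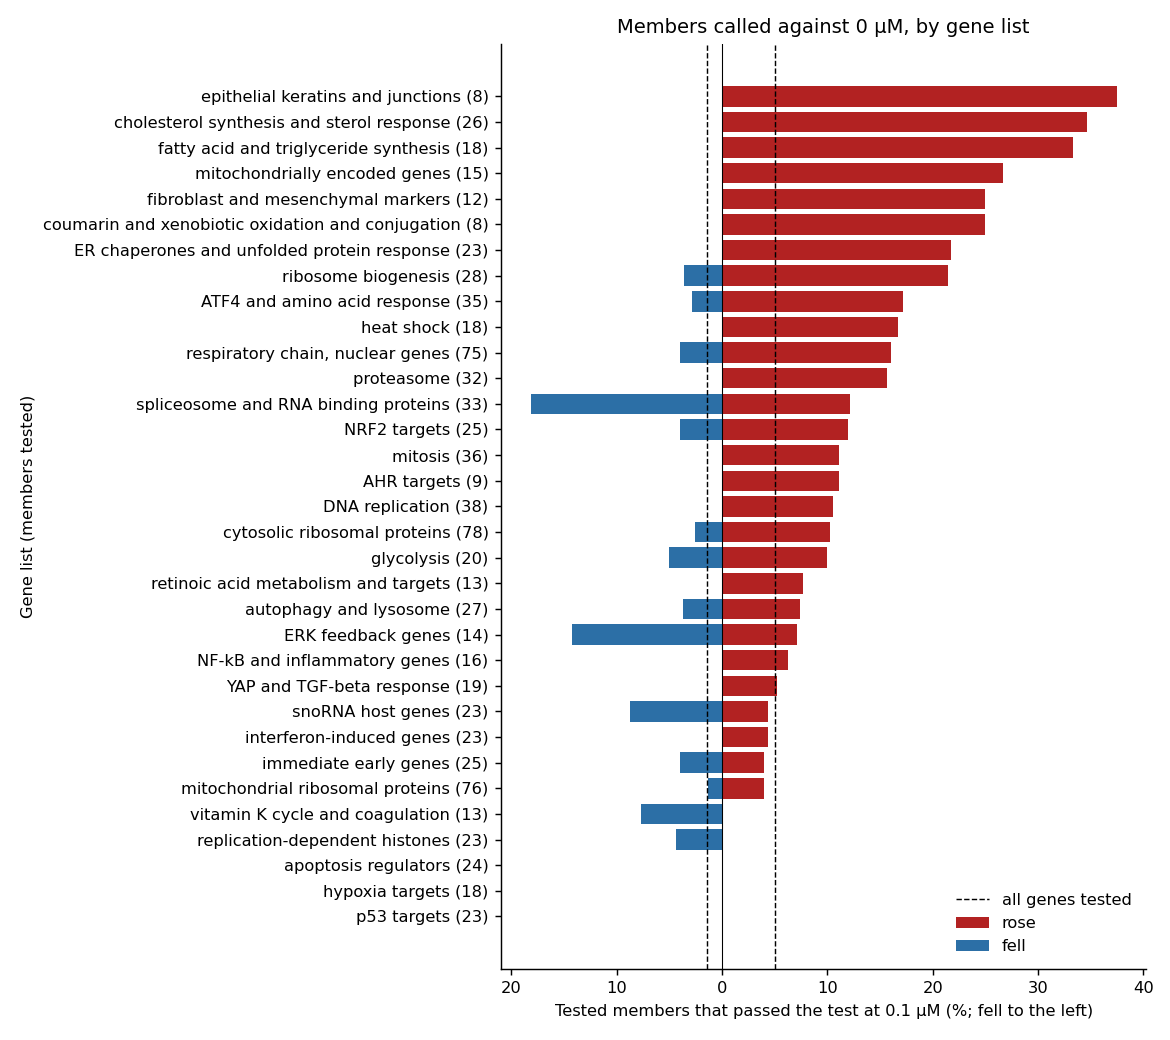
Share of tested members of each gene list with at least 8 of them that rose (red, right) or fell (blue, left) at 0.1 µM against 0 µM, in percent, with dashed lines at the shares over all genes tested. The longest bar, of 8 epithelial genes, reaches 37.5%, the cholesterol and fatty acid lists reach 34.6% and 33.3% to the right of the line at 5.02%, and the spliceosome list 18.2% to the left of the line at 1.43%.

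Genes linked to coumarin's own metabolism mostly had few counts or did not pass the test. The shares over all genes tested were 5.02% for rises and 1.43% for falls. CYP2A6, which hydroxylates coumarin, had at most 2 counts in any of the 6 libraries and CYP3A4 at most 1, and a count of 0 allows up to 3. CYP1A1, a target of AHR, had 0.90 ± 0.21 CPM in control and 0.91 ± 0.26 CPM at 0.1 µM (SD, n = 3, edgeR adjusted p = 0.963). NQO1, a quinone reductase, had 731, 660 and 684 CPM in control and 680, 689 and 703 CPM at 0.1 µM, with a log2 difference of -0.002 (SE 0.040, adjusted p = 0.988). EPHX1, an epoxide hydrolase, and POR, the reductase that feeds electrons to P450 enzymes, rose by 0.19 and 0.17 among 8 genes of oxidation and conjugation. Of 9 genes listed under AHR targets 1 was called, ARNT, which is the partner of AHR rather than a target. It rose by 0.14 (edgeR adjusted p = 0.0483). Of 25 NRF2 targets 3 rose, among them PGD and TKT of the pentose phosphate pathway, and AKR1C1 fell, from 393 ± 10.4 to 350 ± 1.48 CPM. ARNT lost its call in 13 of 18 alternatives, POR in 11 and TKT in 14, and with upper-quartile scaling all 3 did. Against control replicate 1 alone AKR1C1 was the only call in these 3 lists, and with the covariate there was none.

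VKORC1 had 28.0, 27.2 and 28.1 CPM in control and 22.3, 22.9 and 22.8 CPM at 0.1 µM. The fall of 0.29 on the log2 scale (SE 0.067, edgeR adjusted p = 0.00504) was the only call among 13 genes of the vitamin K cycle and coagulation. Its 2 groups did not overlap, as in 1032 of the 1077 called genes. Its call was lost against control replicate 1 alone (log2 change -0.30) and with the covariate (-0.23, edgeR adjusted p = 0.426). GGCX, the carboxylase that uses vitamin K, and VKORC1L1, a paralog of VKORC1, had log2 changes of 0.01 and 0.02 (adjusted p = 0.940 and 0.866). Of 23 p53 targets, 24 apoptosis regulators and 18 hypoxia targets edgeR called none, where 5.02% of all genes tested rose and 1.43% fell. At an unadjusted p under 0.05 there were 4, 0 and 2 of them, and DESeq2 called 0, 0 and 1.

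Genes that do not code for protein had 32 rises and 72 falls. Of 2791 long noncoding genes 9 rose (0.322%) and 48 fell (1.72%), against 5.02% and 1.43% of all genes. Of 1131 pseudogenes 19 rose (1.68%) and 23 fell (2.03%), and of 21 mitochondrial tRNA and rRNA genes 3 rose. The long noncoding median log2 change of -0.12 became -0.05 with control replicate 1 as the only control and -0.03 once the covariate was fitted. The 4 largest rises by the naming rule were the pseudogenes ENSAP2, UBE2V1P2, RPSAP47 and SNRPEP4, whose reads cannot be told apart with certainty from those of their parent genes. SNRPEP4 had 2.44, 2.01 and 2.16 CPM in control and 5.39, 4.04 and 4.23 CPM at 0.1 µM, a 2.06-fold rise (edgeR adjusted p = 0.00013). The 4 largest falls were AC084824.4, AL132989.1, AC007066.2 and AC012085.1, between 1.66-fold and 1.82-fold. AC012085.1 had 25.2, 23.8 and 21.6 CPM in control and 12.5, 13.9 and 16.0 CPM at 0.1 µM. The strand setting of the counts is not given in the sources used here, so reads of antisense genes and their partners may be mixed.

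The called genes also differed in base composition. Transcripts of the protein-coding genes that rose had a median GC content of 54.4%, those that fell 42.5% and all protein-coding genes tested 48.5%. The median control level was 96.4 CPM in the rises and 30.9 CPM in the falls, against 29.3 CPM over all. Among transcripts under 40% GC 0.885% rose and 3.10% fell, and among those over 60% GC 9.27% rose and 0.518% fell. By length, 7.27% of transcripts up to 750 bases rose, 3.89% of those of 1500 to 3000 bases and 10.2% of those over 6000 bases, and 1.82%, 1.20% and 1.92% fell, with no test of the difference. The median log2 change climbed from -0.05 in the lowest GC class to 0.05 in the highest, and against the 3 neighbouring doses from -0.03 to 0.04. What part GC content has in the calls was not tested, and after each library's trend with GC and length was removed, 1257 genes rose and 229 fell, 896 of the called genes being shared.

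**Figure D4:**
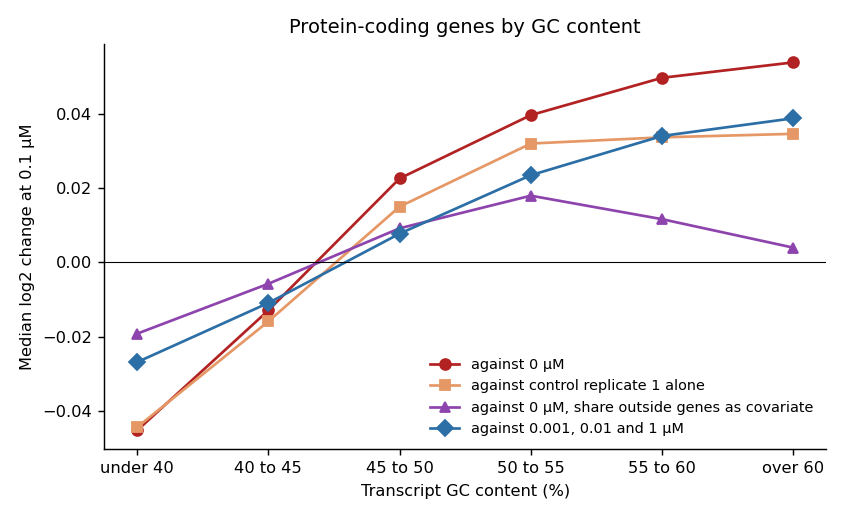
Median log2 change of protein-coding genes at 0.1 µM (vertical axis) by the GC content of their transcript (horizontal axis, percent), against all controls, control replicate 1 alone, all controls with the covariate, and the mean of 0.001, 0.01 and 1 µM. Against all controls the line climbs from -0.05 to 0.05, and with the covariate it ends at 0.004.

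Set against the mean of 0.001, 0.01 and 1 µM, which uses no control library, 5 genes differed at 0.1 µM (0.0299% of those tested), and none of them was called against 0 µM. DDIT4, an inhibitor of mTORC1 signalling, had 298, 289 and 306 CPM at 0.1 µM. It had 191, 190 and 205 CPM at 0.001 µM, 253, 263 and 256 CPM at 0.01 µM, and 227, 191 and 224 CPM at 1 µM (log2 difference 0.43, SE 0.041, edgeR adjusted p = 5.37e-08). All 3 libraries at 0.1 µM stood above those 9, as the naming rule requires. The control had 279, 279 and 270 CPM (edgeR adjusted p = 0.217 against control). Cells at 10 µM had 302, 259 and 292 CPM, and cells at 100 µM had 326, 316 and 316 CPM. TXNIP, which binds thioredoxin and limits glucose uptake, had 177, 176 and 182 CPM at 0.1 µM and 179, 173 and 182 CPM in control. Its means at 0.001, 0.01 and 1 µM were 211 ± 6.23, 197 ± 4.16 and 210 ± 8.90 CPM (SD, n = 3), all 9 libraries above those at 0.1 µM (log2 difference -0.21, SE 0.032, edgeR adjusted p = 0.000811). At 10 µM TXNIP had 190, 187 and 182 CPM, and at 100 µM 174, 170 and 172 CPM.

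ADM, which encodes the vasodilator peptide adrenomedullin, had 27.3, 25.4 and 30.4 CPM at 0.1 µM. Its means at 0.001, 0.01 and 1 µM were 12.1 ± 0.75, 19.5 ± 0.63 and 14.9 ± 3.42 CPM (SD, n = 3; log2 difference 0.86, SE 0.11, edgeR adjusted p = 0.00639). Control cells had 31.5 ± 2.30 CPM, and cells at 10 and 100 µM had 30.1 ± 5.10 and 28.6 ± 1.82 CPM. ADM is also a hypoxia target, and the median of the 18 genes of that list in this comparison was -0.10. Without 0.1 µM replicate 1 or 3 the call of ADM was lost (adjusted p up to 0.195), and DDIT4 and TXNIP kept theirs in all 14 alternatives.

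CTGF, a matricellular protein induced by YAP, and EGR1, an immediate early transcription factor, fell outside the naming rule and are given to complete the 5. CTGF had 45.5, 44.1 and 39.99 CPM at 0.1 µM and means of 48.4 ± 2.57, 52.8 ± 3.12 and 55.01 ± 1.27 CPM at 0.001, 0.01 and 1 µM (SD, n = 3, edgeR adjusted p = 0.00245). It had 45.7, 42.3 and 44.1 CPM in control, 38.9, 40.8 and 40.5 CPM at 10 µM and 31.2, 31.3 and 32.5 CPM at 100 µM. EGR1 had 2.45, 1.54 and 1.26 CPM at 0.1 µM and means of 3.00 ± 0.54, 5.59 ± 1.23 and 3.56 ± 0.89 CPM at those doses (edgeR adjusted p = 0.0256). It had 2.37, 1.71 and 2.10 CPM in control, 2.74, 1.62 and 2.10 CPM at 10 µM and 4.29, 3.87 and 3.13 CPM at 100 µM. In both CTGF and EGR1 1 library at 0.1 µM overlapped those at 0.001 µM. The call of CTGF was lost without 0.1 µM replicate 3 (adjusted p = 0.268), and that of EGR1 in 5 of 14 alternatives.

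**Figure D5:**
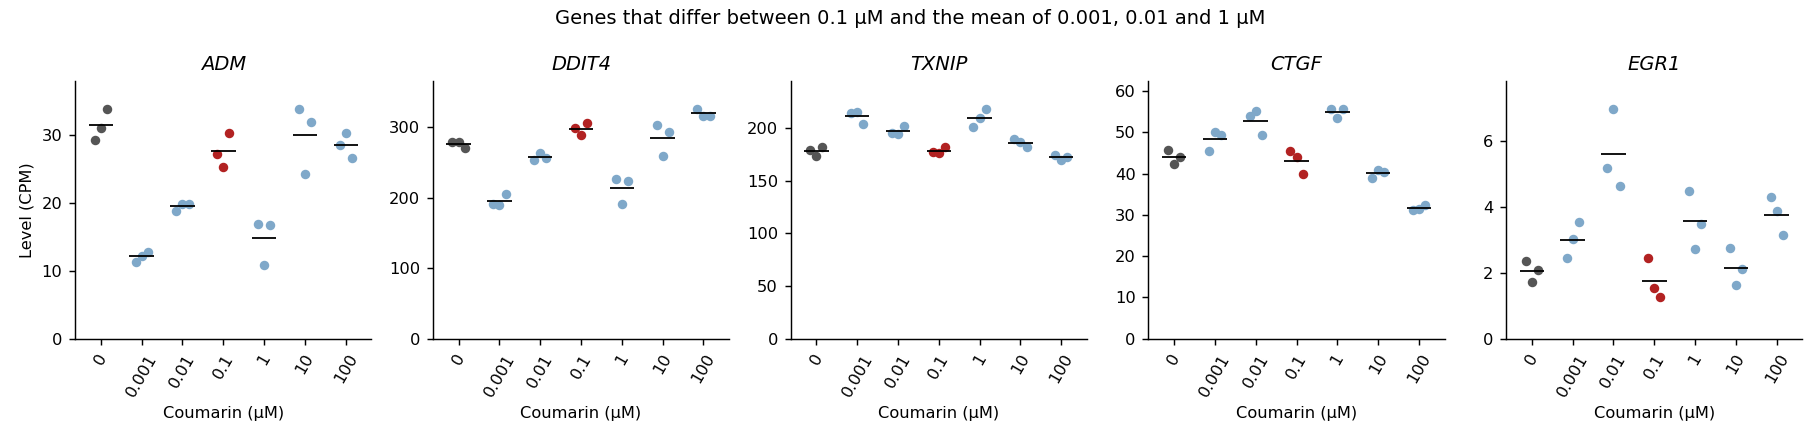
Level (CPM, vertical axis from 0) of ADM, DDIT4, TXNIP, CTGF and EGR1 in each library against dose (µM), with control in grey, 0.1 µM in red, other doses in blue and black lines for the group means. The mean of ADM is 31.5 CPM in control, 12.1 to 19.5 CPM at 0.001 and 0.01 µM, 27.7 CPM at 0.1 µM and 14.9 CPM at 1 µM.

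Single neighbouring doses, compared after the data were seen, gave few calls. Against 0.001 µM 4 genes differed (0.024%): DDIT4, ADM and the heat shock gene HSPA1B were higher at 0.1 µM and TXNIP lower. Against 0.01 µM 8 genes differed (0.0479%), all lower at 0.1 µM, and EGR1, FOS and IER2 among them are immediate early genes. FOS had 23.1 ± 4.84 CPM at 0.1 µM, 45.6 ± 5.42 CPM at 0.01 µM and 26.5 ± 2.05 CPM in control (SD, n = 3). IER2 had 44.3 ± 1.996, 56.2 ± 3.03 and 48.4 ± 3.96 CPM in the same order. Against 1 µM 15 genes differed (0.0898%), 12 of them higher at 0.1 µM. HCFC1, a chromatin cofactor of the cell cycle, had 144 ± 10.5 CPM at 0.1 µM, 120 ± 5.67 CPM at 1 µM and 112 ± 0.94 CPM in control, where it was also called (adjusted p = 3.37e-05). TAPBP, which loads peptides onto MHC class I, and PTPN23 were likewise higher at 0.1 µM than at either.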

How the data were processed

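Per the labels' protocols, RNA from cells harvested with trypsin was purified with Trizol, selected on poly(dT) beads and made into cDNA, in 21 libraries (7 doses, 3 replicates). The raw counts per gene were deposited by the authors as whole numbers. FPKM in the other deposited table were scaled by the authors with the gene length and a library total. HISAT2, DESeq2 and GRCh38 are named in the submitters' processing notes, and for versions, counter and strand setting nothing is given in the sources used here.

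Counts were fitted in R 4.3.3 with edgeR 4.0.16: filterByExpr, TMM scaling and a robust quasi-likelihood F test, with all 21 libraries in 1 fit (14 residual degrees of freedom). P-values were two-sided and adjusted by Benjamini-Hochberg over the 16699 genes tested, with a threshold of 0.05. "Rose", "fell" and "called" mean past it. CPM use TMM-scaled library sizes, and SE is the log2 change divided by the square root of F. The total behind FPKM was computed from genes of at least 20 reads. The share outside genes is the part of that total not in the summed gene counts. This share follows the TMM factors, may absorb a treatment effect as a covariate, and is not an independent measure of quality. Against control replicate 1 alone the spread comes from the treated groups, so losing a call there is no sign that a change is absent.

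The members and the 37 gene lists were chosen with earlier results of these data known. By the naming rule, genes pass the test, average at least 1 CPM and have all treated libraries on 1 side of the reference libraries. These are the 12 largest protein-coding rises and falls and 4 noncoding ones each way against 0 µM, and up to 6 each way against the 3 doses. Up to 4 members a list were picked by smallest p, without these conditions. CYP2A6, CYP1A1, CYP3A4, VKORC1 and NQO1 are given whatever their values. Further list members were named after their values were seen. Some called genes count in the totals and are not reported here by name. Alternatives used limma 3.58.1 on log2 of FPKM plus 1 or 0.1, and DESeq2 1.42.0. GC content and length come from the longest GENCODE transcript of each gene (99.94% of tested genes matched). Replicate numbers did not pair the libraries. The scripts were tested on simulated data. The limits given for counts of 0 rest on counting error alone and make no allowance for PCR copies of a molecule, which are counted too.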

Additional observations from a re-analysis of the deposited data

Results flagged for a closer look

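These 5 genes differed between 0.1 µM and the mean of 0.001, 0.01 and 1 µM in a test of that difference, although the doses lie on both sides of 0.1 µM. It was an edgeR quasi-likelihood test with n = 3 libraries at each dose, 9 in the reference. Differences among the 3 reference doses do not enter its error. ADM was higher at 0.1 µM by 0.86 on the log2 scale (adjusted p = 0.00639) and DDIT4 by 0.43 (adjusted p = 5.37e-08), each in 3 of 3 libraries against all 9. TXNIP was lower, with a log2 difference of -0.21 (adjusted p = 0.000811), also in 3 of 3 libraries. The naming rule requires this separation of ADM, DDIT4 and TXNIP. CTGF had a log2 difference of -0.27 (adjusted p = 0.00245) and EGR1 of -1.16 (adjusted p = 0.0256), with 1 library overlapping in each. None of these 5 genes was called at 0.1 µM against 0 µM. No cause was tested, and no batch or date is given in the labels.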

How the results depend on the processing

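Leaving out 1 of the 6 libraries gave 417 (without 0.1 µM replicate 1) to 1278 (without control replicate 1) called genes, with 352 to 962 rises and 65 to 316 falls. Called list genes, 128 in all, ranged from 47 to 144. Against 0.001, 0.01 and 1 µM the 5 calls ranged from 2 (without 0.1 µM replicate 3) to 5. With upper-quartile scaling 489 rose and 395 fell, and limma on log2 FPKM plus 1 or 0.1 called 158 or 155 falls. An adjusted p under 0.01 left 437 genes, 394 up and 43 down. The covariate left 11 genes, 10 up and 1 down, with 1 list gene, and control replicate 1 alone 233, of which 195 rose and 38 fell, with 14 list genes. Removing the trend with GC content and length, chosen after seeing the data, gave 199 list genes, and asking only that groups not overlap gave 295, where 14% of all genes lay above and 10.7% below. No filter gave 24 calls against the 3 doses. RLE scaling, DESeq2, the other filters, and a fit of only the groups compared kept the count of 1077 within 1.5 times (1027 to 1306). Same-numbered libraries did not deviate together, with correlations of -0.028, 0.017 and 0.0002, so the replicate block, which called 978 genes, is not a paired test. NQO1 changed sign with no filter (0.0052), with limma (0.0074 and 0.00743), with the GC and length trend removed (0.0303) and when libraries were left out (-0.0401 to 0.0399), and CYP1A1 when libraries were left out (-0.21 to 0.24). Neither was called in any. The cause of these shifts was not tested. Single genes were recomputed against 0 µM if called there or fixed by name, of which 4 have no DESeq2 adjusted p, and against the 3 doses if called there.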
